A study of Homo sapiens with 2 samples.

Results

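The miR-191/miR-425 cluster comprises hairpins that give 4 mature miRNAs, hsa-miR-191-5p, hsa-miR-191-3p, hsa-miR-425-5p and hsa-miR-425-3p. They were taken by name from the 2588 mature miRNA names counted in each library, and all 4 were listed in both. Small RNAs were recovered from lysate of MDA231, a triple-negative breast cancer cell line, on amylose resin that carried the MS2 coat protein fused to maltose-binding protein. In the bait library the resin held the long non-coding RNA MACC1-AS1 tagged with MS2 hairpins and made in vitro with T7 RNA polymerase. In the no-bait library it held no RNA, so an effect of MACC1-AS1 cannot be told apart from one of the MS2 hairpins or of any RNA on the resin. Both groups used the parental line, and each was 1 library, with 1047269 counts with bait and 269716 counts without. No difference below has a replicate check, no p-value was computed, and all intervals are 95% intervals that cover counting error only.

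MicroRNAs are cut from hairpin precursors, and either arm of a hairpin, named 5p or 3p, can be loaded into an Argonaute protein. The loaded strand finds its targets mainly through its seed, bases 2 to 8 from the 5′ end. miR-191 and miR-425 lie close together in an intron of DALRD3 and are processed from a shared primary transcript. miR-191 is raised in several tumour types, and in breast cancer cells the cluster has been described as responsive to oestrogen. Because it is detected in many tissues, miR-191-5p is also used as a reference in quantitative PCR.

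In GENCODE version 29 on GRCh38, MIR191 (ENSG00000207605.3) lies on chromosome 3 from 49020618 to 49020709 and MIR425 (ENSG00000199032.1) from 49020148 to 49020234, both on the minus strand. They are 383 bases apart. Each lay in the first intron of all 4 DALRD3 transcripts that span it, and neither overlapped a DALRD3 exon. MIR191 also lay in an intron of 1 transcript of NDUFAF3, which runs on the opposite strand.

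The hairpins, from the RefSeq table for GRCh38.p14, are shown so that the position of each arm and its depth below can be read together. Capitals mark hsa-miR-191-5p and, after the loop, hsa-miR-191-3p in the first hairpin, and hsa-miR-425-3p in the second.
MIR191: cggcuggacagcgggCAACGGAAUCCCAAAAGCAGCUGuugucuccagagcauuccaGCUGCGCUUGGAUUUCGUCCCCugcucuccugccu
MIR425: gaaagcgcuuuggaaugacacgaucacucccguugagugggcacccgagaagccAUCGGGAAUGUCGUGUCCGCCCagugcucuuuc

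The RefSeq table held mature sequences for 3 of the 4 members, given here with the seed in capitals.
hsa-miR-191-5p: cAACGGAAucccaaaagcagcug
hsa-miR-191-3p: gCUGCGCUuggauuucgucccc
hsa-miR-425-3p: aUCGGGAAugucguguccgccc
The seeds of these 3 differ from one another, and none of the other mature miRNAs in the table, which holds 2370 names, shares bases 2 to 8 with any of them. GC content was 52.2% in hsa-miR-191-5p and 63.6% in each of the 3p arms, against a median of 47.8% over the 203 tested miRNAs with a sequence. Over those 203 miRNAs, Spearman's rho between GC content and the log2 ratio of bait to no-bait was -0.30. This is a description across miRNAs that share the same libraries, and the part of base composition in the ratios below was not tested.

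The cluster took a larger share of the bait library. Its 4 members together held 4188 of the bait counts, or 0.400% (exact Clopper-Pearson interval 0.388% to 0.412%), and 205 of the no-bait counts, or 0.0760% (0.0660% to 0.0871%). The summed ratio was 5.26 (exact conditional binomial interval 4.57 to 6.08). Most of these counts were of hsa-miR-191-5p, which gave 82.3% of the cluster's counts with bait (81.1% to 83.4%) and 79.0% without (72.8% to 84.4%). hsa-miR-425-5p gave 15.7% with bait (14.6% to 16.9%) and 19.5% without (14.3% to 25.6%). hsa-miR-425-3p gave 1.93% with bait (1.54% to 2.40%) and 1.46% without (0.303% to 4.22%). For hsa-miR-191-3p these were 0.0478% (0.00578% to 0.172%) and 0% (0% to 1.78%). The intervals of each share overlapped between the libraries. Overlap of separate intervals does not show that the make-up was the same, and members are compared directly below.

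hsa-miR-191-5p is the main product of its hairpin. It had 3446 counts with bait, which is 3290 RPM, a count scaled to the library's total miRNA count, and 162 counts or 601 RPM without bait. The interval of its level was 3182 to 3402 RPM with bait and 512 to 701 RPM without, so the libraries did not overlap. The ratio of bait to no-bait was 5.48 (4.68 to 6.45), a log2 ratio of 2.45. It stood 31st in the order of abundance with bait and 56th without.

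hsa-miR-425-5p, the main product of the neighbouring hairpin, had 659 counts or 629 RPM with bait and 40 counts or 148 RPM without. Its level had an interval of 582 to 679 RPM with bait and 106 to 202 RPM without, again without overlap. The ratio was 4.24 (3.08 to 5.99), a log2 ratio of 2.09. Its place in the order of abundance was 56th with bait and 105th without.

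hsa-miR-425-3p comes from the other arm of the same hairpin. It had 81 counts or 77.3 RPM with bait and 3 counts or 11.1 RPM without. With so few counts in the no-bait library the ratio of 6.95 had an interval of 2.30 to 34.4, which covers the ratios of both 5p arms. Its log2 ratio was 2.80, and its intervals of 61.4 to 96.1 RPM with bait and 2.29 to 32.5 RPM without did not overlap.

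hsa-miR-191-3p, the arm opposite hsa-miR-191-5p, was close to undetected. It had 2 counts or 1.91 RPM with bait and 0 counts without. There 0 counts are taken as up to 11.1 RPM (3 counts), and the exact interval reaches 13.7 RPM. At the bait level, the no-bait depth would give 0.515 counts, so a difference was not detectable at this depth and no ratio is given. In the bait library the order of levels was hsa-miR-191-5p, hsa-miR-425-5p, hsa-miR-425-3p and hsa-miR-191-3p, with no overlap between the intervals of neighbours. The no-bait library gave the same order, but there the intervals of hsa-miR-425-3p and hsa-miR-191-3p overlapped. Ligation and amplification differ between small RNA sequences, so the order between miRNAs is that of counts recovered.

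**Figure D1:**
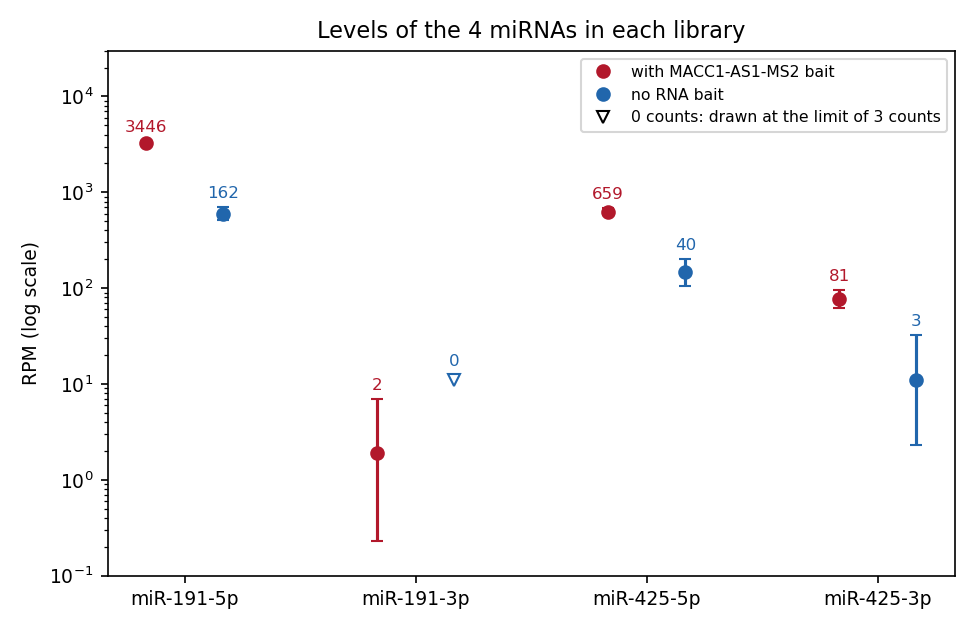
RPM of each member (log axis) in the bait library (red) and the no-bait library (blue), with exact Clopper-Pearson 95% intervals and the count printed above each point. The 3 members with more than 2 counts are higher with bait, from 77.3 against 11.1 RPM for hsa-miR-425-3p to 3290 against 601 RPM for hsa-miR-191-5p, and hsa-miR-191-3p has 2 and 0 counts.

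A miRNA counted as tested if it had 30 or more counts over both libraries. It was then called higher with a ratio of 2 or more, and lower with one of 0.5 or less, provided that 1 lay outside its interval. Of the 4 members 3 were tested, and all 3 were called higher and 0 lower. By the same rule 91 of 231 tested miRNAs, or 39.4%, were higher and 62, or 26.8%, were lower. hsa-miR-425-3p reached 30 counts through the deeper bait library alone. For it, being tested and being called higher were tied, and nothing is read from its call or its place among tested miRNAs. Being called higher was common in these libraries. The median ratio of the 3 tested members was 5.48, against 1.46 over all tested miRNAs, whose quartiles were 0.471 and 3.64. All 3 tested members lay above the upper quartile, and only the 5p arms are free of that tie. hsa-miR-425-3p had 31 tested miRNAs with a larger ratio, hsa-miR-191-5p had 39 and hsa-miR-425-5p had 48. When the whole interval had to lie beyond 2-fold, the same 3 members were still called higher, as were 64 of 231 tested miRNAs (27.7%).

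**Figure D2:**
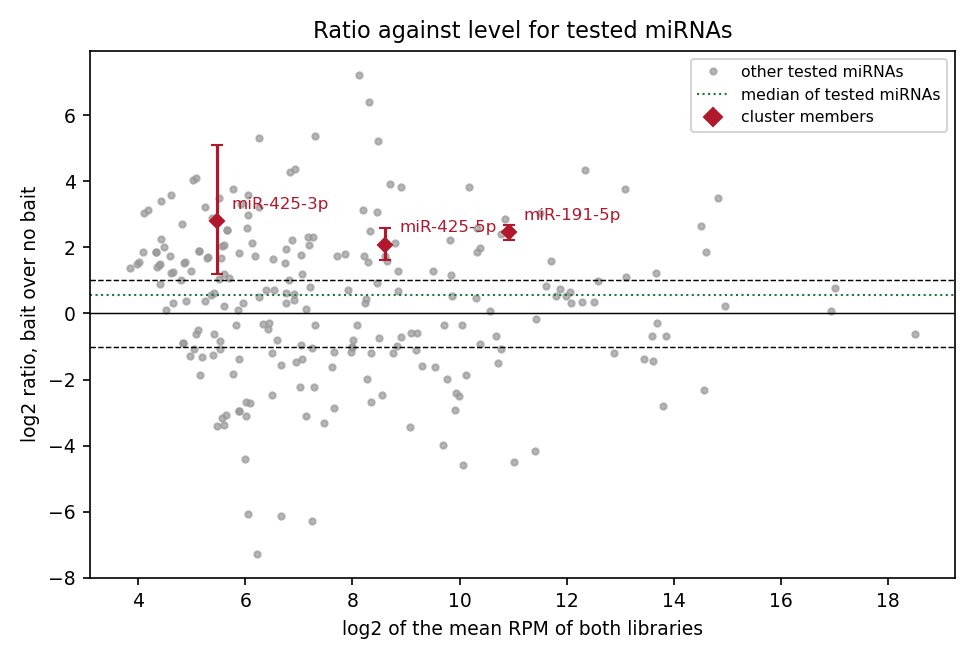
The log2 ratio of bait to no-bait against the log2 mean RPM for the 231 tested miRNAs (grey points), with the 3 tested members as red diamonds with 95% counting intervals. Dashed lines mark 2-fold and the dotted line the median log2 ratio of 0.55. The members lie at log2 ratios of 2.09 to 2.80, above the dashed line but below the points with the largest ratios.

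The members lay above the median of tested miRNAs by 1.91 on the log2 scale for hsa-miR-191-5p, 1.54 for hsa-miR-425-5p and 2.25 for hsa-miR-425-3p, and any scaling factor leaves these distances as they are by construction. The factor itself moved that median by 0.15 when edgeR's TMM was used, by 0.42 when size factors from DESeq2 were used, and by -0.13 when the 5 most abundant miRNAs were dropped from the totals. The ratio of hsa-miR-191-5p was 6.10, 7.34 and 5.01 under these in turn, that of hsa-miR-425-5p was 4.72, 5.68 and 3.88, and that of hsa-miR-425-3p was 7.74, 9.32 and 6.36. All 3 members were called higher under each, as were 41.6%, 49.4% and 36.8% of all tested miRNAs in turn. Among all called miRNAs, 72.2% were higher with DESeq2 size factors (114 higher and 44 lower), against 59.5% with library totals.

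**Figure D3:**
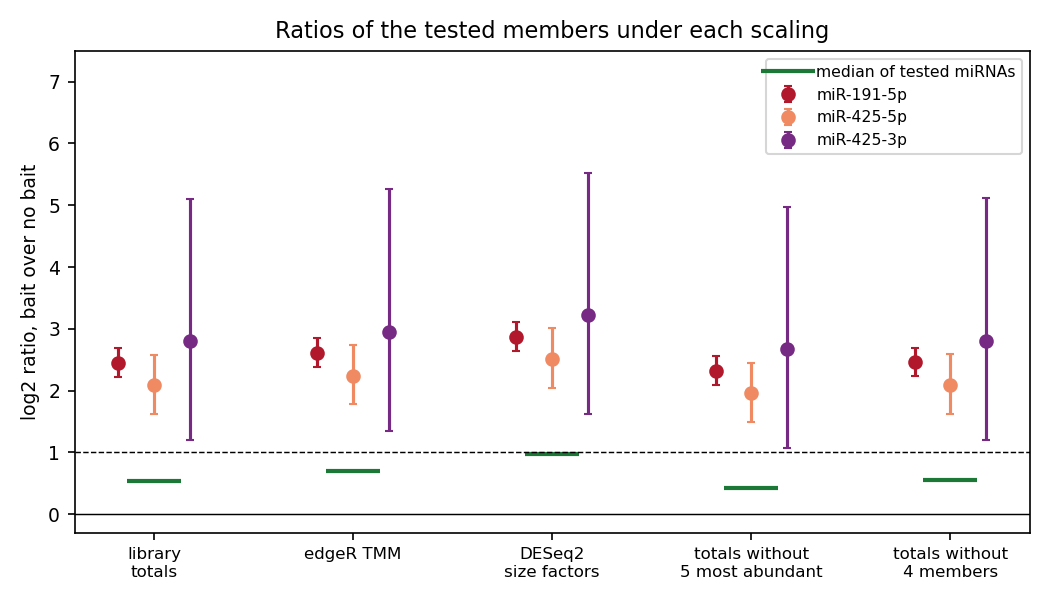
The log2 ratio of bait to no-bait for hsa-miR-191-5p, hsa-miR-425-5p and hsa-miR-425-3p under 5 scalings, with 95% counting intervals, beside the median of the tested miRNAs (green bars). Each member lies above the dashed 2-fold line under every scaling shown, with the lowest at a log2 ratio of 1.96 and the medians between 0.42 and 0.97.

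Since both hairpins are cut from the same primary transcript, their products were compared directly, which needs no scaling between libraries. hsa-miR-191-5p had 5.23 counts for each count of hsa-miR-425-5p with bait and 4.05 without. The bait to no-bait ratio of these values was 1.29 (exact conditional interval 0.881 to 1.86), so the 2 main products did not differ in their ratios beyond counting error. The same comparison of hsa-miR-191-5p with hsa-miR-425-3p gave 42.5 counts per count with bait and 54.0 in the no-bait library. The ratio of these was 0.788 (0.157 to 2.43).

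Other neighbouring hairpins give a scale for that difference. The annotation held 20 pairs of adjacent hairpins on the same strand within 10 kb whose more abundant arms were tested and counted in both libraries, the cluster included. The cluster's products were 1.29-fold apart, the smallest difference of the 20, where the median pair was 3.55-fold apart. Of the other 19 pairs, 4 had differences of 1.60-fold to 1.79-fold, which lie within the cluster's own interval, so its first place is not separated from theirs. Intervals of the other pairs were not computed, so separation from the rest is not shown either. Several of those pairs rest on few no-bait counts, such as 2 of miR-18a-5p and 3 of miR-452-5p. In 7 of the 20 pairs both products were called higher, and in 9 the calls matched, where 39.4% of all tested miRNAs were higher. Some products in the 7 pairs reached 30 counts through the deeper bait library, such as miR-30b-5p (58 counts with bait and 4 without) and miR-362-5p (37 and 2). For these, being tested and being called higher were tied, and nothing is read from the 7. The largest difference was that of miR-96-5p and miR-183-5p, 428-fold, with a single no-bait count of miR-96-5p behind it. The pairs overlap where a cluster holds more than 2 hairpins, so they are not independent.

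Both arms of miR-425 were called higher. The 3p arm made up 10.9% of the hairpin's counts with bait (81 of 740, interval 8.79% to 13.4%) and 6.98% without (3 of 43, 1.46% to 19.1%). The 5p count was 8.14 times the 3p count with bait and 13.3 times without, and the bait to no-bait ratio of these was 0.610 (0.118 to 1.99), which includes 1. On the log2 scale the ratio of the 5p arm lay 0.71 below that of the 3p arm. For miR-191 the 3p arm made up 0.0580% of the hairpin's counts with bait (2 of 3448, 0.00703% to 0.209%). Without bait it made up 0 of 162, which is up to 1.85% at 3 counts and up to 2.25% by the exact interval. In the bait library the 3p share of miR-425 was larger than that of miR-191, and the intervals do not overlap.

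Among 33 hairpins with both arms tested and counted in both libraries, the arms of the median hairpin were 3.96-fold apart in their bait to no-bait ratio. Those of miR-425 were 1.64-fold apart, and 5 hairpins had a smaller difference. Both arms were called higher in 4 of the 33, which were let-7b, miR-132, miR-340 and miR-425. In each of them the less abundant arm had 5 or fewer no-bait counts and reached 30 counts through the deeper bait library, so being tested and being called higher were tied, and nothing is read from this count. The interval of the miR-425 value runs from 0.118 to 1.99, so arms up to the median distance apart in favour of the 3p arm lie inside it.

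**Figure D4:**
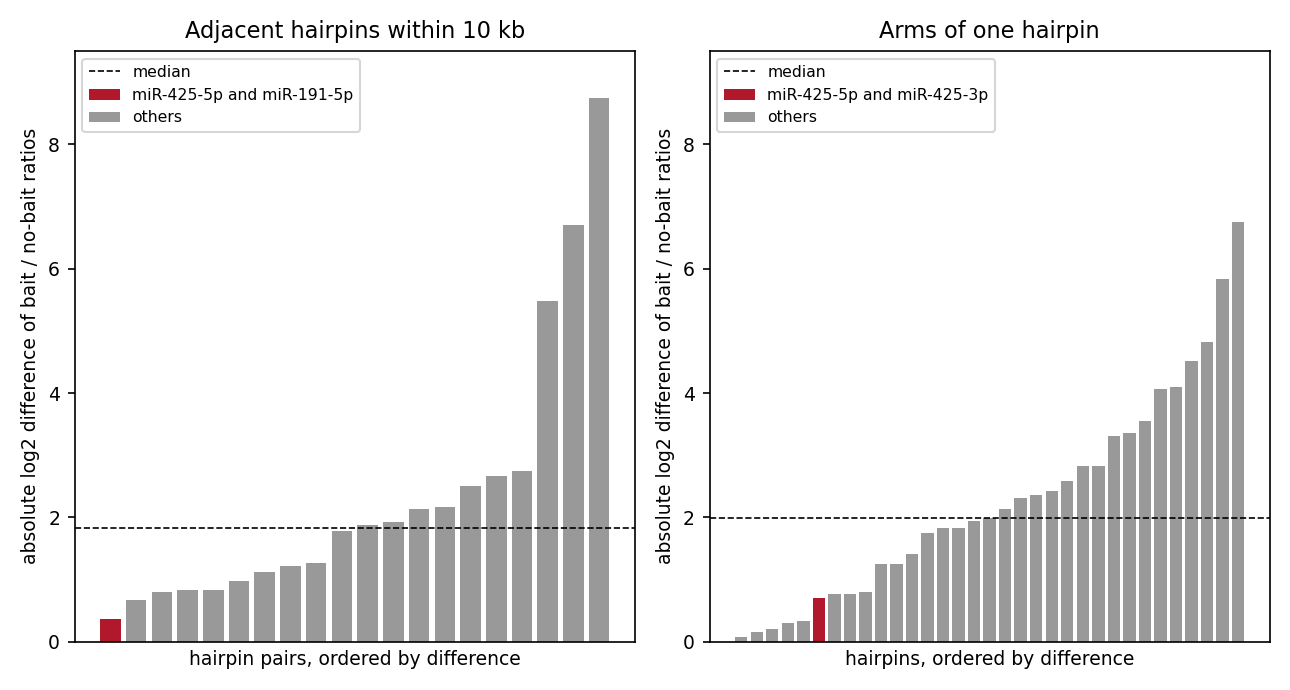
Absolute log2 difference of the bait to no-bait ratios within 20 pairs of adjacent hairpins (left) and between the arms of 33 hairpins (right), in ascending order, with the median dashed. The red bars are hsa-miR-425-5p with hsa-miR-191-5p (0.37, the lowest of 20) and hsa-miR-425-5p with hsa-miR-425-3p (0.71, with 5 lower).

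The bait side of a possible pairing was searched for the seeds of the 3 members with a sequence in the table, and hsa-miR-425-5p was not searched. The annotated MACC1-AS1 transcript (ENST00000439285.1, 639 nt, gene on chromosome 7 from 20141916 to 20153531, plus strand) held no match to the complements of bases 2 to 8, which are TTCCGTT for hsa-miR-191-5p, AGCGCAG for hsa-miR-191-3p and TTCCCGA for hsa-miR-425-3p. Only the transcript strand was searched. It also held no match to the shorter complements of bases 2 to 7, which are TCCGTT for hsa-miR-191-5p, GCGCAG for hsa-miR-191-3p and TCCCGA for hsa-miR-425-3p and lie within the longer ones. Of the 203 tested miRNAs with a sequence, 4 (1.97%) had a match to bases 2 to 8 and 19 (9.36%) to bases 2 to 7. The bait's own isoform and its MS2 part were not analysed here, so these letters describe the annotated transcript only.

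The miRNAs with ratios closest to the members' were named by distance in log2 ratio, over the 2 libraries only. For hsa-miR-191-5p these were miR-181b-5p, with a ratio of 5.35 (4.54 to 6.35), and miR-17-5p, with 5.71 (3.85 to 8.81). For hsa-miR-425-5p they were miR-454-3p and miR-484, each with a ratio of 4.22. The closest to hsa-miR-425-3p were miR-23b-3p at 7.33 (6.11 to 8.88) and miR-10a-3p at 6.57 (1.73 to 55.7). These 6 miRNAs carry 6 different seeds. Sharing a seed with the members that have a sequence was not possible, since no other mature miRNA with a sequence shares theirs.

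miRNAs of like abundance with bait had ratios on both sides of the members'. Just above hsa-miR-191-5p in the bait library stood miR-151a-3p with 3573 RPM, against 24811 RPM in the no-bait library, a ratio of 0.144 (0.138 to 0.150), and miR-146a-5p with a ratio of 1.77. Just below it stood miR-23b-3p with a ratio of 7.33 and miR-181b-5p with 5.35, which is also the closest ratio to its own. hsa-miR-425-5p had the same bait count, 659, as miR-16-5p, whose no-bait count was 20 and whose ratio was 8.49 (5.45 to 13.98). miR-106b-5p, next in order with 655 counts, had 2 without bait and a ratio of 84.3 (23.3 to 698). The other neighbours of hsa-miR-425-5p had smaller ratios than its own. miR-30c-2-3p, with 689 bait counts, had a ratio of 2.43 (1.91 to 3.14), and miR-126-3p, with 630, one of 3.31 (2.47 to 4.52). Beside hsa-miR-425-3p, with 81 bait counts, stood miR-181a-3p with 82 and a ratio of 0.812, miR-454-3p with 82 and a ratio of 4.22, miR-34c-5p with 80 and a ratio of 4.12, and miR-10b-5p with 78 and a ratio of 0.386. Of these, miR-454-3p and miR-34c-5p lie within the interval of hsa-miR-425-3p.

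As reference miRNAs for quantitative PCR are chosen for even levels between samples, a list of 9 others was set beside the cluster. Of these 9, 5 were called higher and 2 lower, with a median ratio of 2.25. Over all tested miRNAs, the values to set beside this list and the next were 39.4% higher and 26.8% lower, with a median ratio of 1.46. Nothing is read from the number of calls in such short lists. miR-26a-5p had a ratio of 3.65 (3.52 to 3.79), miR-25-3p one of 0.819, let-7i-5p one of 0.367 (0.354 to 0.380) and miR-423-3p one of 1.58. A list of 9 miRNAs raised in tumours had 8 tested members, of which 4 were higher and 2 lower, with a median ratio of 2.27. It included miR-21-5p at 1.72 and miR-222-3p at 0.200, which passed the lower rule, with miR-221-3p at 1.27 and miR-27a-3p at 3.01. Single members of both lists had ratios above that of hsa-miR-425-5p (4.24). They were miR-16-5p at 8.49 in the first list, and miR-17-5p at 5.71, miR-210-3p at 4.93 and miR-20a-5p at 4.43 in the second. Of these, only miR-16-5p lay above every tested member. miR-17-5p lay above hsa-miR-191-5p (5.48) but below hsa-miR-425-3p (6.95), and miR-210-3p and miR-20a-5p lay below both. The lowest ratio in the first list was that of miR-423-5p, 0.0557.

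The labelled cell type was checked against its markers. The 5 miRNAs listed for basal breast lines held 53.0% of counts with bait and 59.9% without. Most of these counts were of miR-100-5p (296361 RPM with bait and 452802 RPM without) and miR-21-5p (167088 and 97328 RPM). Ratios in this list ran from 0.200 for miR-222-3p to 11.4 for miR-125b-5p. The 6 epithelial miRNAs held 0.0181% and 0.0111%, which is 190 and 30 counts. Most of these were of miR-200b-3p, with 144 and 28 counts. miR-200c-3p had 20 and 1, miR-200a-3p had 18 and 1, and miR-429 had 8 and 0. miR-141-3p and miR-205-5p were at 0 counts in both. miR-191-5p is also abundant in blood cells, and the 7 blood cell miRNAs held 0.0432% of counts with bait and 0.0864% without. Most of these counts were of miR-486-5p, with 386 counts or 369 RPM with bait and 214 counts or 793 RPM without. miR-142-5p had 45 and 9 counts (ratio 1.29), miR-142-3p had 17 and 0, and miR-451a had 4 and 10. miR-144-3p, miR-223-3p and miR-150-5p were at 0 in both libraries. The part of blood cell RNA in the cluster's ratios was not tested.

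In the authors' deposited table hsa-miR-191-5p had a log2 fold change of 2.45 with a p-value of 0.000198. hsa-miR-425-5p had 2.09 with a p-value of 0.00183, and hsa-miR-425-3p had 2.80 with a p-value of 0.00309, in the authors' deposited table. These p-values stood 39th, 72nd and 83rd, and 143 of the 2588 miRNAs were under 0.05 in the authors' deposited table. For hsa-miR-191-3p the authors' deposited table gave a log2 fold change of 7.58 with a p-value of 1. That value rests on 2 counts set against 0 RPM replaced by 0.01 RPM, and it is larger than those of the 3 tested members. The test behind these p-values is not named, and with 1 library in each group it compares libraries.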

How the data were processed

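Small RNA libraries from 2 resin eluates of MDA231 lysate were used, 1 with MACC1-AS1-MS2 as bait and 1 without RNA. Per library, the authors deposited raw counts of 2588 mature miRNA names and an RPM that differed from count over total by at most 0.00994 RPM. A deposited table by the authors adds a log2 fold change and a p-value from an unnamed test. BWA is named without a version, per the submitters' processing notes. Not given in the sources used here are the miRNA reference, build, trimming and the handling of reads that match several names. Reads carried no stated molecular identifiers, so counts include amplification.

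Counts were scaled by library totals of 1047269 (bait) and 269716 (no bait). At 3 counts, the limit used for 0 counts, these give 2.86 and 11.1 RPM. Ratios have exact conditional binomial 95% intervals, shares have Clopper-Pearson intervals (SciPy 1.17.1), and ratios of ratios have exact conditional odds ratio intervals. Calls needed 30 counts over both libraries and a ratio of at least 2 or at most 0.5 with an interval excluding 1. The interval and calls were tested on simulated counts with known folds. These held counting error only, so amplification and spread between libraries were not covered. A tested miRNA with 0 counts in 1 library was set to 3 counts there. Differences between arms or hairpins used only miRNAs counted in both libraries, which left out 1 hairpin and 2 pairs and was decided after the data were seen. Where a hairpin has both arms, the one with the larger summed RPM stood for it, and miRNAs with several hairpins were left out. TMM came from edgeR 4.0.16 and size factors from DESeq2 1.42.0, with no test from either. Hairpins and the MACC1-AS1 transcript came from GENCODE version 29, and sequences from RefSeq (203 of 231 tested names matched).

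Named were the 4 members, for each tested member the 2 miRNAs closest in log2 ratio and the 2 next above and below in bait level, the extreme hairpin pairs, and up to 4 members per list by summed counts, with marker lists. let-7b, miR-132, miR-340 and, in the lists, miR-16-5p, miR-423-5p, miR-17-5p, miR-210-3p and miR-20a-5p were named after their values were seen. The members and lists were chosen with earlier results of these data known.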

Additional observations from a re-analysis of the deposited data

How the results depend on the processing

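Of 53 alternative values, 49 kept their direction and stayed within the counting interval or within 1.5 times the reported count, and the other 4 moved. Some of the 49 could hardly move. The deposited RPM are the same counts over the same totals, and totals without the 4 members shifted the median log2 ratio by only 0.0047. DESeq2 size factors put the log2 ratio of hsa-miR-191-5p at 2.88 against 2.45 with library totals, outside its counting interval, by the changed factor alone. A minimum of 100 counts left 59 of 146 tested miRNAs higher and 37 lower. No count filter gave 100 of 715 lower, since other numbers of miRNAs are tested. All 3 tested members stayed higher under each scaling. They also did so at a minimum of 10 counts (95 of 325 tested miRNAs higher) and with intervals beyond 2-fold (64 of 231). With no count filter 3 of 4 members were higher, without hsa-miR-191-3p, as were 95 of 715 miRNAs. At 100 counts hsa-miR-425-3p was no longer tested, which left 2 higher, and the place of the miR-425 arms could not be given. The cluster stayed the closest of 24 adjacent pairs at 10 counts. The 15 pairs at 100 counts and the 17 within 1 kb are drawn from the 20 above. The cluster's first place among them was therefore fixed in advance. As above, 4 of the other pairs lie within its interval, so its place is not separated from theirs. At 10 counts 10 of 49 hairpins had closer arms than miR-425. The deposited RPM gave the same ratios as the counts at the precision printed.

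The no-bait depth limits all values, with 3 counts of hsa-miR-425-3p and 0 of hsa-miR-191-3p. No paired analysis was possible because each group held 1 library, which also leaves no replicate to omit.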
